A study of Mus musculus with 17 samples.

Results

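The 46 genes described here encode transporters of the renal proximal tubule, their apical scaffold and actin bundling proteins, and the secreted kidney androgen-regulated protein. They were chosen by name, with earlier results of these data known. The transcripts of each were summed to a gene in all 17 kidney libraries, which list 35971 genes. Of the 46 members, 45 passed the filter on low counts and were tested, and Slco1a1, an organic anion transporter, was not, with 0 to 0.304 CPM (counts scaled to a TMM-adjusted library size) in the 17 kidneys. The study crossed mice with a conditional PRCC-TFE3 fusion gene (lsl-PRCC-TFE3 KI) with KSP-Cre mice, in which the Ksp (cadherin 16) promoter drives Cre recombinase in the renal tubular epithelium, and asked how loss of Hif1α or Hif2α alters the kidneys that express the fusion. All 17 mice carry the lsl-PRCC-TFE3 KI allele. The 4 Cre(−) mice lack Cre, and of them replicates 1 and 2 also carry HIF1af/f while replicates 3 and 4 carry no flox allele. The 3 PRCC-TFE3 KI mice (KI) carry KSP-Cre and no flox allele, the 4 Hif1α KO mice carry HIF1af/f and KSP-Cre, the 3 Hif2α KO mice carry HIF2af/f and KSP-Cre, and the 3 DKO mice carry HIF1af/f, HIF2af/f and KSP-Cre. The RNA is from kidney tissue, so cells in which Cre was not active contribute to every library. The labels give neither age nor sex for these mice.

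The proximal tubule reclaims most of the glucose, phosphate, bicarbonate, amino acids and filtered organic solutes through carriers in its brush border membrane, which is a dense array of microvilli, and passes them to the blood through carriers of the basolateral membrane. Its convoluted segments S1 and S2 carry the high-capacity carriers, such as the glucose carrier SGLT2 (Slc5a2) and the phosphate carrier NaPi-IIa (Slc34a1), while the straight segment S3 carries high-affinity ones such as SGLT1 (Slc5a1). Organic anions and cations are taken up from the blood by the Slc22 family and secreted across the brush border, and many of these genes depend on the hepatocyte nuclear factor HNF4.

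Library totals ranged from 16504419 to 24668827 expected counts (median 18635282), and a floor of 3 counts corresponds to 0.117 to 0.206 CPM, which covers counting error only. Gpnmb, a gene that TFE3 fusions are known to raise, had 0.993 to 2.14 CPM in Cre(−) kidneys and 13009 to 15629 CPM in KI kidneys. It was below all KI libraries in every knockout kidney, with 3269 to 7452 CPM in Hif1α KO, 4953 to 11387 CPM in Hif2α KO and 2807 to 6415 CPM in DKO kidneys, and passed against KI in Hif1α KO (log2 fold change -1.35, edgeR adjusted p = 0.0318) and DKO kidneys (-1.8, edgeR adjusted p = 0.0082) but not in Hif2α KO kidneys (-0.77, edgeR adjusted p = 0.2624). Hif1a had 184.0 to 231.6 CPM in KI and 162.6 to 198.4 CPM in Hif1α KO kidneys. Epas1, the gene of Hif2α, had 173.2 to 191.7 CPM in KI and 136.5 to 149.3 CPM in Hif2α KO kidneys. DKO kidneys had 173.9 to 203.3 CPM of Hif1a and 155.5 to 165.3 CPM of Epas1. Gene totals include exons outside a floxed part and cells without Cre, so they do not check the knockout labels. KI replicate 2 stands apart in fat cell markers, with 1279.2 CPM of Cfd against 28.3 and 93.5 CPM in the other KI kidneys. Library order largely follows the groups and cannot be told apart from them. Nothing says that libraries with one replicate number share a litter or a day, and the p-values measure the spread between kidneys of different mice.

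The promoters of 3 members, an amino acid carrier subunit, a glucose carrier and the sodium-proton exchanger, are shown as examples. They hold the letters of a motif of HNF4, the nuclear factor named above, or of TFE3, the factor that is fused here. These members are among the 43 of 45 tested members that fell in KI kidneys, as described below. A link between motif and fall was not tested. The sequences are those of RefSeq (GRCm38.p6), on the plus strand of the chromosome, which is the strand of all 3 genes. Each covers the 250 bases before the start that RefSeq gives. Capitals mark CAAAGTCCA, a form of the HNF4 motif, in Slc3a1 and CACGTG, the core of sites bound by MiT/TFE factors such as TFE3, in Slc5a1 and Slc9a3. The windows are chr17:85028097-85028346 for Slc3a1, chr5:33103969-33104218 for Slc5a1 and chr13:74121163-74121412 for Slc9a3.
Slc3a1: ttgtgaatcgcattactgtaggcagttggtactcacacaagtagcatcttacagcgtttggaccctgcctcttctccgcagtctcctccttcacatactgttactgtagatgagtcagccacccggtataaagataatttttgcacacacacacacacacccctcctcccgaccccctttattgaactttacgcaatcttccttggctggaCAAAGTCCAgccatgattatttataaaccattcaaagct
Slc5a1: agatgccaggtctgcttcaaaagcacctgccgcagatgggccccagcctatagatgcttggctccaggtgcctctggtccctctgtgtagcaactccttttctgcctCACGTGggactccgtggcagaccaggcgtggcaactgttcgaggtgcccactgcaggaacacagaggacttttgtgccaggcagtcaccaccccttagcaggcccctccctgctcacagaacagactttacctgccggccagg
Slc9a3: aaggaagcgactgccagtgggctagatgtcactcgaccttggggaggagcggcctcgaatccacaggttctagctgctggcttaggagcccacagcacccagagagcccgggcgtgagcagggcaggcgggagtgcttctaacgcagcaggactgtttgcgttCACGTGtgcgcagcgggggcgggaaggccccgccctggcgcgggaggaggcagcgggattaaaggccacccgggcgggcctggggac
RefSeq promoters of 300 bases (250 before and 50 after the start) were matched for 38 of the 46 members, which have 48 promoters, since some genes have several starts. CAAAGTCCA or its reverse complement TGGACTTTG was found in Pdzk1 and Slc3a1 (1 promoter each, 4.17% of the 48, against 0.475% of all 32851 promoters). The match of Slc3a1 begins 39 bases before the start and that of Pdzk1 lies after it. CACGTG, which reads the same on both strands, was found in Slc13a3, Slc5a1, Slc22a4, Slc9a3 and Abcc4 (1 promoter each, 10.4% of the 48, against 7.15% of all). It begins 143 bases before the start in Slc5a1 and 87 bases before it in Slc9a3. The motifs do not overlap each other here, and a match describes the letters, not a bound site.

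The first comparison asked how the fusion alters these genes. In KI kidneys 43 of the 45 members tested fell relative to Cre(−) kidneys, against 29.3% of all genes tested, and 1 member, Slc20a2, rose, against 31.6% of all genes (edgeR's quasi-likelihood test, adjusted p under 0.05 after Benjamini-Hochberg adjustment over 17011 genes). The member left over was Abcc2. The median log2 fold change of the members was -3.06, against 0.03 over all genes. In the same 43 members every KI library was below every Cre(−) library, an order that 27.7% of all genes show. Together the members held 2.05% to 2.35% of the counts of a Cre(−) library and 0.29% to 0.33% of the counts of a KI library. Kap alone held 0.47% to 0.83% of the counts in Cre(−) kidneys. In whole kidney, fewer proximal tubule cells and less RNA per cell cannot be told apart. All 44 calls were made again in each fit that left out 1 of the 7 libraries.

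**Figure D1:**
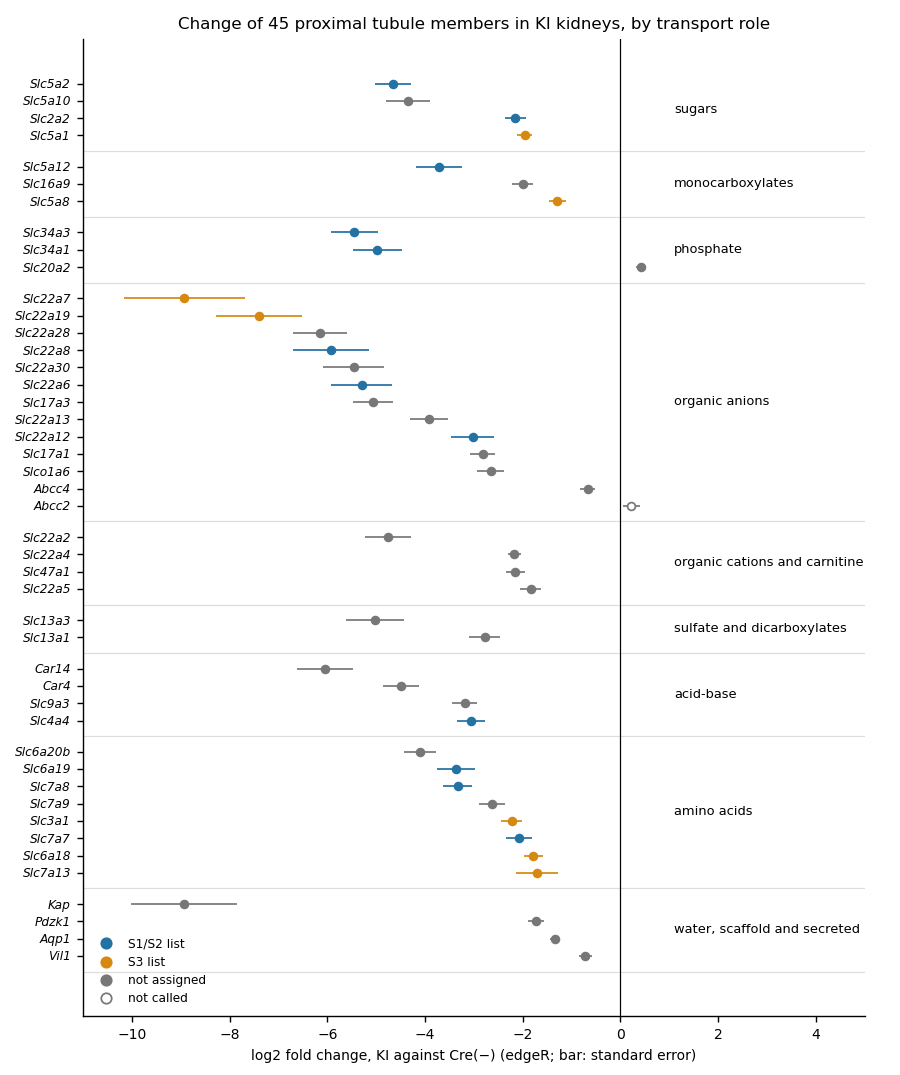
Log2 fold change of the 45 tested members in KI against Cre(−) kidneys (x axis), ordered within each transport role (y axis), with standard errors as bars. Colours mark the segment lists and the open circle the member that did not pass the test. The points run from -8.93 for Slc22a7 and Kap to 0.42 for Slc20a2.

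All 4 sugar carriers fell. Slc5a2, the SGLT2 carrier that takes up most of the filtered glucose in S1 and S2, reached 464.3, 372.9, 501.2 and 479.9 CPM in Cre(−) and only 22.9, 10.3 and 20.8 CPM in KI kidneys. It fell 25.3-fold, with a log2 fold change of -4.66 ± 0.37 (SE; edgeR adjusted p = 6.18e-08). Slc5a1, the SGLT1 carrier that takes up the glucose left in S3, had 116.6, 137.3, 104.5 and 97.2 CPM in Cre(−) and 33.9, 27.5 and 26.8 CPM in KI kidneys. The groups do not overlap in either gene, and the log2 fold change of Slc5a1 was smaller, -1.96 ± 0.15 (edgeR adjusted p = 3.89e-08). Slc5a10, a carrier of mannose and fructose, changed by -4.34 and Slc2a2, the GLUT2 carrier through which glucose leaves the cell, by -2.15 on the log2 scale. Slc2a2 had 188.3, 202.2, 183.5 and 136.1 CPM in Cre(−) and 51.4, 30.6 and 37.9 CPM in KI kidneys.

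Of the 3 monocarboxylate carriers, Slc5a12, the low-affinity lactate carrier of the early tubule, fell by 3.71 on the log2 scale, Slc16a9 by 2.0 and Slc5a8, the high-affinity lactate carrier of the straight tubule, by 1.29. Slc5a8 had 146.2, 177.7, 165.6 and 136.9 CPM in Cre(−) kidneys and 86.3, 54.2 and 52.2 CPM in KI kidneys. This was the smallest change of the S3 list, with no overlap (SE 0.18, edgeR adjusted p = 1.76e-05).

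Phosphate carriers moved in both directions. Slc34a1, NaPi-IIa, the main brush border phosphate carrier, is on chromosome 13 of GRCm38 from 55398187 to 55415592. Its Cre(−) levels were 3812, 3272, 3330 and 3439 CPM, and its KI levels 118.2, 76.1 and 135.8 CPM, which is a log2 fold change of -4.98 ± 0.5 (edgeR adjusted p = 5.86e-07). Per length it was the most abundant transporter of the members in Cre(−) kidneys, at 2461 ± 141 TPM (SD, n = 4), and it had 96.1 ± 20.4 TPM in KI kidneys (n = 3). Slc34a3, NaPi-IIc, fell by 5.45 on the log2 scale. Slc20a2, the PiT-2 carrier that many tissues use, had 64.9, 57.1, 57.1 and 47.5 CPM in Cre(−) and 79, 74.3 and 74.6 CPM in KI kidneys. All KI libraries lay above all Cre(−) libraries, and the log2 fold change was 0.42 ± 0.11 (edgeR adjusted p = 0.0035).

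Organic anion carriers were the largest group, and among the 45 tested members Slc22a7 of this group and Kap, described below, fell furthest. Of the 13 tested, 12 fell, with a median log2 fold change of -5.07. Slc22a7, the OAT2 carrier, on chromosome 17 from 46432183 to 46438457, had 335.6, 213.3, 272.1 and 327.5 CPM in Cre(−) kidneys and 0.977, 0.377 and 0.399 CPM in KI kidneys, which is 17, 7 and 7 counts. Its log2 fold change was -8.93 ± 1.24 (edgeR adjusted p = 1.47e-05), the largest of the S3 list.

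Slc22a6 and Slc22a8, the basolateral carriers OAT1 and OAT3 that take up urate and drugs for secretion, lie next to each other on chromosome 19. Slc22a6 had 549.7, 622.4, 432.7 and 489.8 CPM in Cre(−) and 12, 8.13 and 19.6 CPM in KI kidneys (log2 fold change -5.3 ± 0.62, edgeR adjusted p = 2.63e-06). Slc22a8 had 850.4, 824.8, 717.9 and 852.1 CPM in Cre(−) and 18.2, 6.84 and 14.9 CPM in KI kidneys (-5.93 ± 0.78, edgeR adjusted p = 8.23e-06). In neither gene do the groups overlap, and Slc22a8 showed the largest fall of the S1/S2 list. Slc22a19 changed by -7.4, Slc22a28 by -6.15 and Slc22a30 by -5.46. These belong to a cluster of rodent carriers with close copies among which the authors' counting could split reads, so their single values are uncertain. Slc22a28 had 22.7, 23, 18.9 and 17 CPM in Cre(−) and 0.402, 0.269 and 0.171 CPM in KI kidneys, near the floor of 3 counts. The urate carrier Slc22a12 fell by 3.02, Slc22a13 by 3.92, and the phosphate and urate carriers Slc17a1 by 2.82 and Slc17a3 by 5.07 on the log2 scale.

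Slco1a6, an organic anion carrier of the SLCO family, fell by 2.66 on the log2 scale in its gene total, but the size depends on the unit. The KI mean was 15.9% of the Cre(−) mean in CPM and 68.6% in TPM, which divides each transcript by its length, and on log2(TPM + 1) the change was -0.58. Its transcripts differed. The coding transcript Slco1a6-201 (2815 bases, 15 exons) held 66.1% to 88.4% of the gene's counts in Cre(−) kidneys and 24.5% to 29.5% in KI kidneys, and its mean fell from 74.5 to 5.5 TPM. The short transcript Slco1a6-203 (458 bases, 2 exons), annotated as a processed transcript with no coding sequence, held 4.73% to 6.7% in Cre(−) and 67.0% to 71.5% in KI kidneys. The mean level of Slco1a6-203 was 38.9 TPM in Cre(−) and 103 TPM in KI kidneys. The gene total thus mixes a transcript with a lower level and one with a higher level in KI kidneys. These are estimates of the authors' quantification, which splits reads between transcripts, and were not tested.

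The efflux pumps of the brush border changed little. Abcc4, MRP4, fell by 0.67 (edgeR adjusted p = 0.0014). Abcc2, MRP2, had 312.3, 442.4, 341.4 and 268.3 CPM in Cre(−) and 406.2, 424.1 and 359.8 CPM in KI kidneys. These ranges overlap, and the log2 fold change was 0.22 ± 0.17 (edgeR adjusted p = 0.2858). On log2(TPM + 1) the median over all genes shifts from 0.03 to 0.42, and on that scale limma called Abcc2 higher in KI kidneys and no longer called Abcc4 lower.

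Among carriers of organic cations and carnitine, Slc22a2, the basolateral cation carrier OCT2, had 181.4, 181.9, 147.7 and 142.1 CPM in Cre(−) and 7.36, 4.09 and 6.62 CPM in KI kidneys, and fell by 4.76 on the log2 scale (SE 0.47, edgeR adjusted p = 4.22e-07). The carriers OCTN1 (Slc22a4), OCTN2 (Slc22a5) and MATE1 (Slc47a1), all of the brush border, had smaller log2 fold changes of -2.17, -1.84 and -2.15. Of the sulfate and dicarboxylate pair, the basolateral dicarboxylate carrier Slc13a3 fell by 5.02 and the brush border sulfate carrier Slc13a1 by 2.78. Slc13a1 had 316.0, 378.8, 310.5 and 270.1 CPM in Cre(−) and 49.4, 27.8 and 61.7 CPM in KI kidneys.

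All 4 genes of acid and base handling fell. The membrane-bound carbonic anhydrases, which let filtered bicarbonate be reclaimed, fell by 6.05 (Car14) and 4.49 (Car4) on the log2 scale. Car14 had 104.5, 78.9, 74.7 and 97.6 CPM in Cre(−) and 1.32, 0.7 and 2 CPM in KI kidneys. The sodium-proton exchanger NHE3 (Slc9a3) fell by 3.19 and the basolateral bicarbonate carrier NBCe1 (Slc4a4) by 3.06. Slc4a4 had 1089, 1037, 1175 and 873.2 CPM in Cre(−) kidneys, and the 3 KI kidneys, at 125.1 ± 36.4 CPM (SD, n = 3), lay well below these.

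All 8 amino acid carriers fell, with a median log2 fold change of -2.43. Slc6a19, the neutral amino acid carrier of the early tubule, changed by -3.37, and Slc6a18, its relative in the later tubule, by -1.78. Slc6a20b changed by -4.11 and the basolateral Slc7a8 by -3.33. The cystine carrier is a pair of subunits, and these fell by 2.23 (Slc3a1, the heavy chain) and 2.63 (Slc7a9, the light chain). Slc7a7, a basolateral light chain for cationic amino acids, showed the smallest fall of the S1/S2 list, with 259.3, 181.0, 186.7 and 169.3 CPM in Cre(−) and 37.8, 34 and 69.8 CPM in KI kidneys (-2.08 ± 0.27, edgeR adjusted p = 9.01e-06). Slc7a13, an S3 carrier of acidic amino acids, was scarce in all groups, with 2.4, 1.45, 2.58 and 1.7 CPM in Cre(−) and 0.862, 0.646 and 0.342 CPM in KI kidneys (-1.71 ± 0.43, edgeR adjusted p = 0.0031).

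The water channel, the scaffold and the microvillus protein fell less than the median member. Aqp1, the water channel of the proximal tubule and the thin descending limb, had 859.6, 825.2, 800.3 and 800.0 CPM in Cre(−) and 318.2, 316.0 and 338.7 CPM in KI kidneys (-1.34 ± 0.11, edgeR adjusted p = 7.14e-08). Pdzk1, which anchors brush border carriers, had 1376.4, 1383.3, 1291.6 and 1478.1 CPM in Cre(−) and 438.3, 413.6 and 397.4 CPM in KI kidneys (-1.73 ± 0.16, edgeR adjusted p = 2.29e-07). Vil1, villin, which bundles the actin of microvilli, had 228.4, 210.6, 205.5 and 201.2 CPM in Cre(−) and 127.8, 108.6 and 147.6 CPM in KI kidneys (-0.72 ± 0.13, edgeR adjusted p = 0.000139). In each of these genes the KI libraries lay below all Cre(−) libraries. The KI mean of Vil1 was 60.5% of the Cre(−) mean in CPM and 84.4% in TPM. Its log2 fold change was as small as -0.24 in other settings, and 1 of 9 such settings did not call it.

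Kap, the kidney androgen-regulated protein that proximal tubule cells secrete, on chromosome 6 from 133849851 to 133853762, had 10514, 5686, 7716 and 9262 CPM in Cre(−) kidneys. In KI kidneys 19.3, 18.5 and 13.2 CPM were left, a 488.5-fold fall (log2 fold change -8.93 ± 1.09, edgeR adjusted p = 4.24e-06). Per length Kap was the most abundant member in Cre(−) kidneys (18327 ± 4133 TPM), followed by Slc34a1 and Pdzk1 (688 TPM). In KI kidneys the order was Pdzk1 (288 TPM), Aqp1 (192 TPM) and Slc6a18 (135.0 TPM), and Kap was in place 10 with 52.6 TPM.

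The segments were compared next, with 12 members listed for S1 and S2, 7 for S3 and 26 tested members assigned to neither. All 12 S1/S2 members and all 7 S3 members fell in KI kidneys. The S1/S2 members had log2 fold changes from -5.93 to -2.08 with a median of -3.54. The S3 members ran from -8.93 to -1.29 with a median of -1.96. The S3 list is thus split. Its organic anion carriers Slc22a7 and Slc22a19 fell further than any S1/S2 member, and its other 5 members fell by 2.23 or less on the log2 scale. The split rests on these 2 genes, of which Slc22a7 had 17, 7 and 7 counts in KI kidneys. The single values of Slc22a19 are uncertain because of close copies, as described above. The lists hold few genes and were not tested against each other.

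**Figure D2:**
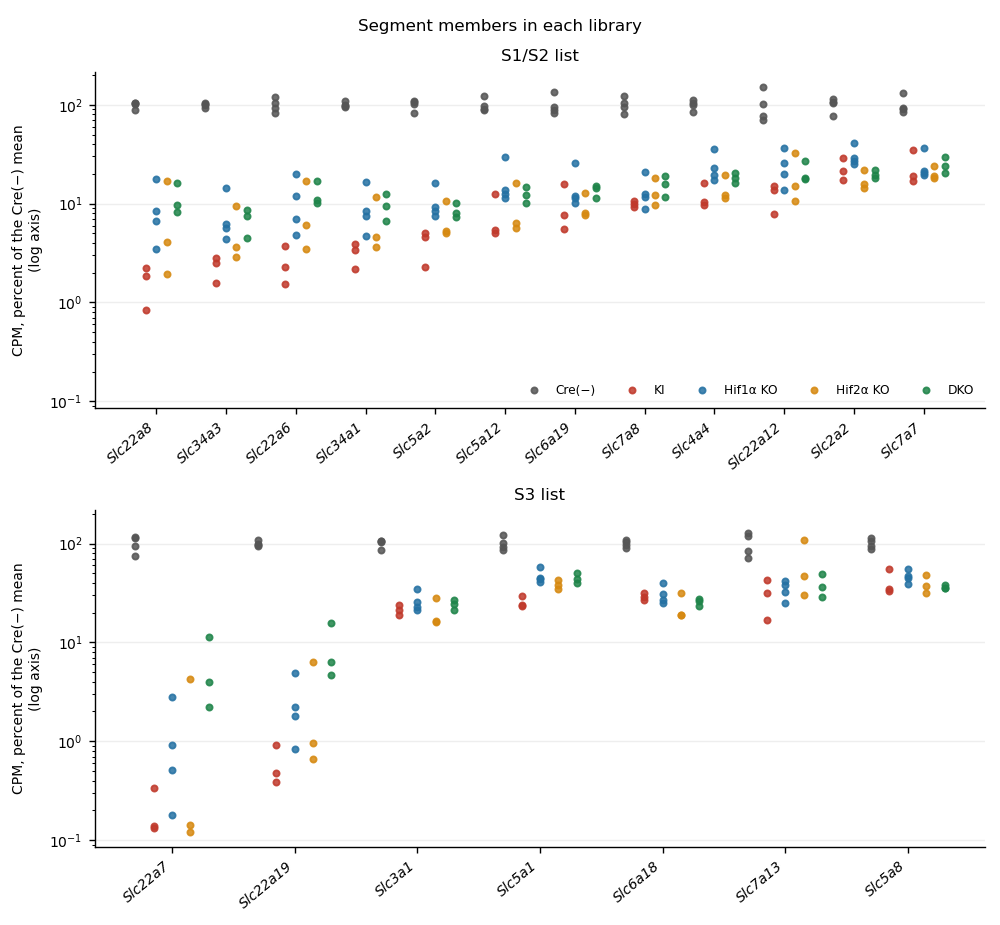
CPM of each S1/S2 member (upper panel) and S3 member (lower panel) in each of the 17 libraries, as a percent of the mean of the 4 Cre(−) libraries, on a log axis. Each point is 1 library, coloured by group. Slc22a7 and Slc22a19 lie lowest in KI kidneys, and the libraries of the knockout groups spread upward from KI in these 2 genes and in Slc22a8 and Slc22a6.

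The next comparisons asked how far the members returned when Hif1α or Hif2α was deleted as well. All 3 use the same KI libraries as reference, so they are not independent of one another. In Hif1α KO kidneys 15 of 45 members rose relative to KI kidneys and none fell, where 2.57% of all genes rose and 5.44% passed in either direction. Every Hif1α KO library lay above every KI library in 17 members, an order that 8.96% of all genes show. Slc20a2 was below all KI libraries in every Hif1α KO library. The members' median log2 fold change was 0.94. The 15 comprised 3 sugar carriers (Slc5a1, Slc5a2, Slc5a10), both NaPi carriers (Slc34a1, Slc34a3), 5 organic anion carriers (Slc22a6, Slc22a8, Slco1a6, Slc17a1, Slc17a3), Slc22a2, both Slc13 carriers, Slc4a4 and Car14. For Slco1a6 the gene total in Hif1α KO kidneys was mostly the transcript with no coding sequence, Slco1a6-203, which held 52.4% to 78% of its counts (mean 177 TPM), while the coding Slco1a6-201 had a mean of 12.4 TPM. By segment the 15 were 6 of 12 S1/S2 members, 1 of 7 S3 members and 8 of 26 others. No amino acid carrier, monocarboxylate carrier, scaffold or water channel passed.

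The largest rise among the members called was that of Car14, which had 18, 4.41, 7.07 and 6.91 CPM in Hif1α KO kidneys, above the 0.7 to 2 CPM of KI kidneys (log2 fold change 2.75 ± 0.56, edgeR adjusted p = 0.0150). Slc22a8 had 143.1, 28.1, 68.3 and 54.3 CPM (2.46 ± 0.66, edgeR adjusted p = 0.0425). Slc22a6 had 103.9, 25.1, 62 and 36.9 CPM (2.1 ± 0.54, edgeR adjusted p = 0.0348). In all 3 genes replicate 1 was highest and no Hif1α KO library overlapped the KI libraries. Slc13a1 had 214.9, 106.1, 112.8 and 106.1 CPM (1.54 ± 0.31, edgeR adjusted p = 0.0136) and Slc5a1 had 65.7, 51.2, 49.7 and 46.3 CPM (0.86 ± 0.15, edgeR adjusted p = 0.0073). Slc5a2 had 74, 38.2, 33.7 and 42.4 CPM and Slc34a1 had 571.9, 163.9, 289.3 and 258.3 CPM, and both rose (log2 fold changes 1.39 and 1.54, edgeR adjusted p = 0.0253 and 0.0459).

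The count of 15 rests on single libraries. It was 3 without Hif1α KO replicate 1, 6 without Hif1α KO replicate 3, 6 without KI replicate 1, 2 without KI replicate 2 and 4 without KI replicate 3. Slc5a1 and Slc13a1 were called in each of the 7 fits that left out 1 library. The calls numbered 9 with the replicate number as a block, and 2 when only the 2 groups were fitted.

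In Hif2α KO kidneys none of the 45 members passed the edgeR test against KI kidneys, where 1.39% of all genes did in either direction. At an unadjusted p under 0.05, 18 members were higher and 1 was lower, against 10.2% and 8.98% of all genes. DESeq2's Wald test called 4 higher and 1 lower, and limma on log2(TPM + 1) called none. Every Hif2α KO library was above all KI libraries in 8 members (9.52% of all genes). Slc20a2, Abcc2 and Aqp1 were below all KI libraries in every Hif2α KO library. The members' median log2 fold change was 0.43. The 3 members with the smallest p were Slc5a1 (49.1, 43.3 and 39.7 CPM, log2 fold change 0.59, edgeR adjusted p = 0.0642), Abcc2 and Slc22a2. Abcc2 had 242.5, 205.8 and 299.3 CPM (-0.67, edgeR adjusted p = 0.0736) and Slc22a2 had 28.5, 10.4 and 13.8 CPM (1.55, edgeR adjusted p = 0.0864). All 3 lay outside the range of the KI libraries in every Hif2α KO library.

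Several members were far higher in Hif2α KO replicate 1 than in the other Hif2α KO kidneys. Slc22a7 had 12.1, 0.35 and 0.405 CPM, Slc22a8 137.2, 15.6 and 33.5 CPM, and Kap 132.6, 15.9 and 39.1 CPM. Slc34a1 had 404.5, 124.9 and 160.1 CPM, Slc22a6 88.5, 18.2 and 31.6 CPM, and Slc5a2 47.8, 24.2 and 22.8 CPM. In each of the 6 genes replicate 1 was the highest of its group and at least 1 other library lay within the KI range. Replicate 3 was also above all KI libraries in Kap, Slc22a8, Slc22a6 and Slc34a1, and replicate 2 in Slc5a2.

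In DKO kidneys 18 members rose relative to KI kidneys, against 6.53% of all genes, and Abcc2 fell, against 6.19%. Every DKO library was above all KI libraries in 25 members (16.5% of all genes). Slc20a2, Abcc2 and Pdzk1 were below all KI libraries in every DKO library. The median log2 fold change was 0.7. The 18 that rose comprised 3 sugar carriers, both NaPi carriers, 6 organic anion carriers, Slc22a2, both Slc13 carriers, Car4, Car14, Slc6a20b and Kap. By segment they were 5 of 12 S1/S2 members, 3 of 7 S3 members and 10 of 26 others.

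The largest rises were those of Slc22a7, Kap and Slc22a19. Slc22a7 had 6.38, 32.5 and 11.5 CPM in DKO kidneys (log2 fold change 4.83 ± 1.24, edgeR adjusted p = 0.0213). Kap had 181.0, 610.4 and 98.8 CPM (4.13 ± 0.9, edgeR adjusted p = 0.0101) and Slc22a19 had 14.1, 47.3 and 19.1 CPM (3.91 ± 0.83, edgeR adjusted p = 0.0092). In all 3 genes every DKO library was above every KI library, and replicate 2 was highest. The KI kidneys had 2.76, 1.18 and 1.43 CPM of Slc22a19 while the Cre(−) kidneys had 330.9, 297.8, 293.4 and 283.9 CPM, so that the risen levels were still far below those of the controls. In Hif1α KO kidneys Slc22a19 had 14.9, 2.54, 6.67 and 5.46 CPM, and in Hif2α KO kidneys 19.2, 2.01 and 2.89 CPM, and neither group passed against KI. In Hif1α KO kidneys Slc22a7 had 8.01, 0.519, 2.64 and 1.48 CPM and Kap 164.0, 19.1, 52.6 and 36.3 CPM, which did not pass against KI (edgeR adjusted p = 0.3365 and 0.1541).

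Other members that rose in DKO kidneys had smaller changes. Slc22a8 had 66.8, 129.8 and 79.5 CPM, Slc22a6 52.7, 88.5 and 57.5 CPM, and Slc34a1 230.8, 430.5 and 325.2 CPM. Slc5a1 had 45.2, 57.7 and 50.4 CPM, Slc5a2 33.1, 46 and 36.9 CPM, and Slc22a2 17.1, 35.1 and 20.7 CPM. None of these overlapped the KI libraries. Slc13a1 had 121.2 ± 25.1 CPM (SD, n = 3) and Car14 had 4.63, 7.22 and 5.52 CPM (log2 fold changes 1.39 and 2.11). Abcc2 had 224.6, 164.6 and 182.1 CPM, below all KI libraries (log2 fold change -1.06 ± 0.19, edgeR adjusted p = 0.0039).

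The count of 18 was 3 without DKO replicate 2, 8 without DKO replicate 3, 6 without KI replicate 2 and 8 without KI replicate 3. Slc5a1, Slc22a19 and Abcc2 were called in each of the 6 fits that left out 1 library.

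**Figure D3:**
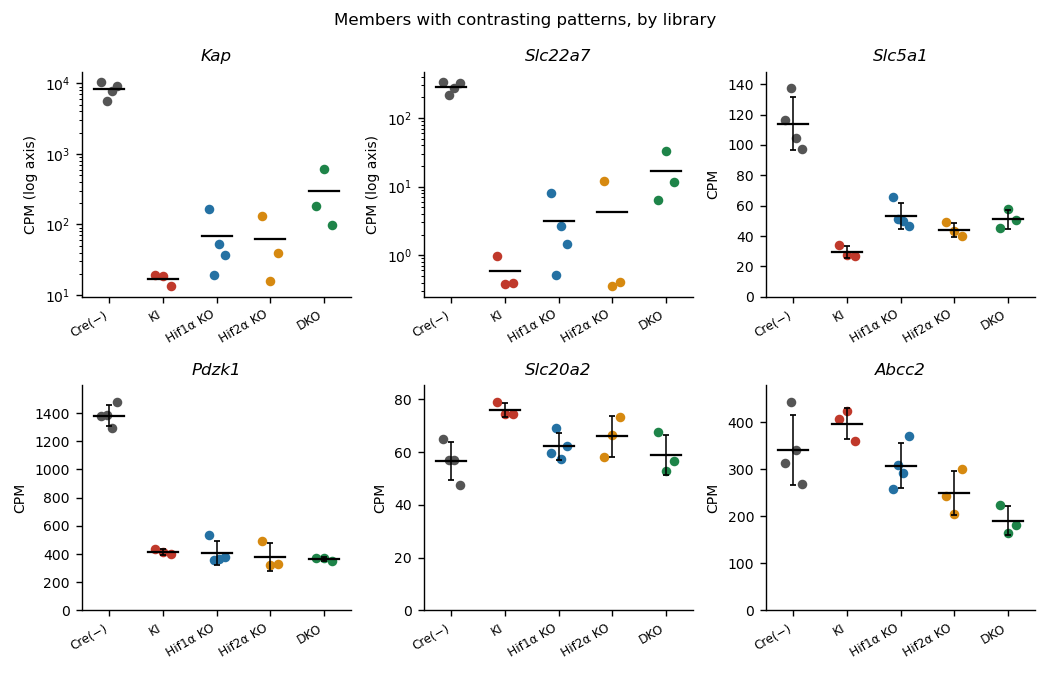
CPM of 6 members with differing patterns in each library, by group, with group means as lines and SD as error bars (no error bars on the log axes of Kap and Slc22a7). Kap and Slc22a7 are highest in DKO replicate 2 among the knockout kidneys, Slc5a1 lies above KI in all 3 knockout groups, Pdzk1 remains near its KI level, and Abcc2 is lowest in DKO kidneys.

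Recovery was described as the share of the KI loss regained, which is the log2 fold change of a knockout group against KI divided by that of Cre(−) against KI. It was computed for the 41 members that fell in KI kidneys by at least 1 on the log2 scale, as 13.1% of all genes did, and KI libraries enter both parts of it. The median share was 24.1% in Hif1α KO, 18.7% in Hif2α KO and 25.3% in DKO kidneys. Library by library the share was taken from log2(CPM + 0.5), as the distance from the KI mean towards the Cre(−) mean. On this scale the medians were 41%, 12.4%, 19.1% and 16.3% in the Hif1α KO and 32%, 0.406% and 8.81% in the Hif2α KO kidneys. In the DKO kidneys they were 14.5%, 31.9% and 25.8%. Replicate 1 of both single knockouts thus lies well above the others of its group. The library medians need not average to the group shares, which come from edgeR fold changes. A group share of 50% or more was reached by 1, 1 and 2 of the 41. These were Slc13a1 in Hif1α KO (55.4%), Slc7a13 in Hif2α KO (60.1%), where its counts are few, and Slc22a7 (54.1%) and Slc22a19 (52.8%) in DKO kidneys. Shares are on the log2 scale, and the linear levels remained low, as in DKO kidneys, where the mean of Slc22a7 was 5.85% and that of Slc34a1 9.49% of the Cre(−) mean.

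The median share of the S1/S2 members was 30.8% in Hif1α KO, 15% in Hif2α KO and 21.8% in DKO kidneys. That of the S3 members was 13.5%, 29.5% and 18.7% in the same order. The S3 median in Hif2α KO kidneys rests on replicate 1, since it was -6.91% without that library, and the S3 median in Hif1α KO kidneys was 28.6% without KI replicate 1. In Hif2α KO kidneys the S1/S2 median was 3.18% without replicate 1, and in DKO kidneys the S3 median was 5.47% without replicate 2, 11.9% without KI replicate 3 and 31.2% without KI replicate 1. No difference between the segments was tested. Slc22a8 had the highest share of the S1/S2 list in all 3 groups (41.5%, 37.5% and 47%). Slc5a1 had 43.8%, 29.9% and 40.9%. Pdzk1, Slc22a4, Slc7a7 and Slc6a18 had shares from -19.1% to 8.32% in all 3 groups. Pdzk1 had 532.8, 360.1, 364.1 and 376.9 CPM in Hif1α KO, 492.8, 319.5 and 327.8 CPM in Hif2α KO and 375.0, 372.9 and 352.3 CPM in DKO kidneys. Vil1 had 132.9, 113.6, 112.0 and 105.4 CPM in Hif1α KO, 138.3, 95.6 and 104.5 CPM in Hif2α KO and 109.9, 99.9 and 101.1 CPM in DKO kidneys. Aqp1 had 447.1, 334.6, 364.4 and 322.0 CPM in Hif1α KO, 314.2, 311.1 and 285.3 CPM in Hif2α KO and 330.3, 355.0 and 414.8 CPM in DKO kidneys. In these 3 genes no knockout group passed against KI kidneys. Slc7a7, at 71.9, 42.6, 40.4 and 38.7 CPM in Hif1α KO, 47.5, 36.1 and 38.1 CPM in Hif2α KO and 40.5, 58.4 and 47.6 CPM in DKO kidneys, did not pass either. Slc5a8, at 85.9, 60.6, 69.8 and 73.6 CPM, 75.3, 49.2 and 58.3 CPM and 60.1, 55.4 and 55.9 CPM in the same groups, overlapped KI in all 3.

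**Figure D4:**
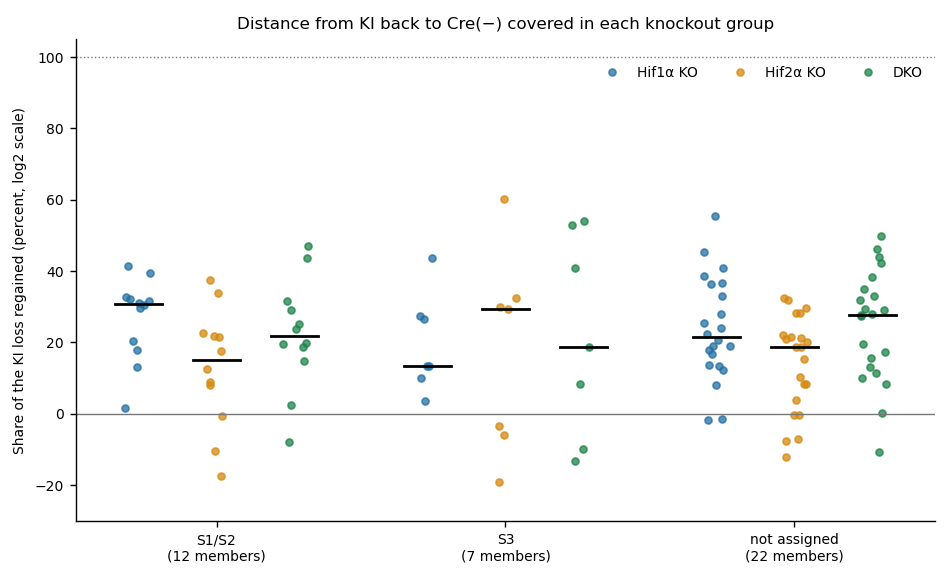
Share of the KI loss regained (percent, log2 scale) for each of the 41 lost members in each knockout group, split by segment list, with medians as lines. The dotted line at 100 is the Cre(−) level and 0 is the KI level. All but 4 points lie below 50%, and 17 lie below 0.

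All 3 knockout groups stayed below Cre(−) kidneys. Of 45 members 43 were lower in the Hif1α KO group, 43 in the Hif2α KO group and 44 in the DKO group (edgeR, adjusted p under 0.05), against 30.1%, 29.9% and 27.9% of all genes. The medians were -2.27, -2.78 and -2.43. Slc20a2 passed the edgeR test in none of the 3 groups, with 59.6, 69.1, 57.6 and 62.5 CPM in Hif1α KO, 58, 66.6 and 73.3 CPM in Hif2α KO and 67.6, 52.7 and 56.5 CPM in DKO kidneys, all groups overlapping Cre(−). In TPM the result differs, since Slc20a2 had 14.6 to 19.9 TPM in Cre(−) kidneys and 23.9 to 34.8 TPM in the knockout kidneys, and limma on log2(TPM + 1) called it higher in all 3 groups (0.55, 0.71 and 0.57, adjusted p from 0.000249 to 0.0016). Abcc2, at 258.5, 309.5, 291.5 and 370.8 CPM, did not pass in Hif1α KO kidneys, but it was lower than in Cre(−) kidneys in Hif2α KO (log2 fold change -0.45) and DKO kidneys (-0.84). Slc7a13 was lower in Hif1α KO (0.657, 0.779, 0.847 and 0.507 CPM) and DKO kidneys (0.731, 1 and 0.586 CPM) but did not pass in Hif2α KO kidneys (2.2, 0.613 and 0.962 CPM, -0.68, edgeR adjusted p = 0.1523). Slc22a28 had 1.25, 0.104, 0.598 and 0.429 CPM in Hif1α KO, 1.56, 0.481 and 0.81 CPM in Hif2α KO and 0.731, 0.896 and 1.12 CPM in DKO kidneys, against at least 17 CPM in every Cre(−) kidney.

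The knockout groups were then compared directly. None of the 45 members differed between Hif1α KO and Hif2α KO kidneys by the edgeR test, where 0.429% of all genes did. At an unadjusted p under 0.05, 9 members were higher in Hif1α KO kidneys, against 7.99% of all genes, and none was lower. DESeq2 called 1. The smallest p was that of Slc2a2, which had 73.7, 47.5, 44.4 and 50.8 CPM in Hif1α KO and 39.1, 25.5 and 27.9 CPM in Hif2α KO kidneys. These do not overlap (log2 fold change 0.81, edgeR adjusted p = 0.0966). Car14 had 5.66, 1.4 and 1.67 CPM in Hif2α KO kidneys (1.61, edgeR adjusted p = 0.1400), and Slc4a4 had 374.3, 179.7, 205.3 and 239.6 CPM in Hif1α KO and 205.1, 120.0 and 129.0 CPM in Hif2α KO kidneys (0.72, edgeR adjusted p = 0.1826). Without Hif2α KO replicate 1 the count was 4.

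No member differed between DKO and Hif1α KO kidneys, where 0.406% of all genes did, or between DKO and Hif2α KO kidneys, where 0.00588% did (edgeR). At an unadjusted p under 0.05 there were 3 members higher and 2 lower in DKO than in Hif1α KO kidneys (6.56% and 6.41% of all genes), and 5 higher than in Hif2α KO kidneys (2.25% of all genes). DESeq2 called 1 member lower than in Hif1α KO kidneys and none against Hif2α KO kidneys. Against Hif1α KO kidneys the smallest p values were those of Abcc2 (log2 fold change -0.69, edgeR adjusted p = 0.1035), Slc22a19 (1.88, edgeR adjusted p = 0.2185) and Slc2a2 (-0.61, edgeR adjusted p = 0.2278). Against Hif2α KO kidneys they were those of Kap (2.25), Slc22a19 (1.72) and Aqp1 (0.27), with an edgeR adjusted p = 0.8823 each. The interaction, which tests whether the effect of Hif2α loss differs with and without Hif1α, passed for none of the members or other genes (0% called). At an unadjusted p under 0.05 it was negative for 8 members and for 3.25% of all genes. The smallest of these p values were those of Slc5a1 (-0.64), Slc13a1 (-1.04) and Slc5a2 (-1.1), where DKO kidneys had less than the sum of the single effects (edgeR adjusted p from 0.6870 to 0.8113).

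The members moved together by library. Hif1α KO replicate 1 had the highest level of its group in 40 of 45 members, Hif2α KO replicate 1 in 41 and DKO replicate 2 in 29, and KI replicate 2 had the lowest level of its group in 33. The median of the members, as log2(CPM + 0.5) minus the Cre(−) mean, was -3.19, -3.4 and -2.64 in the KI kidneys. It was -1.73, -2.77, -2.33 and -2.64 in the Hif1α KO kidneys, -2.34, -3.14 and -3.0 in the Hif2α KO kidneys and -2.61, -2.17 and -2.4 in the DKO kidneys. Markers of other cell types followed the same order of libraries in part. The 5 thick ascending limb markers had medians of -1.38, -2.69, -1.84 and -2.06 in the Hif1α KO kidneys, and -1.64, -2.73 and -2.57 in the Hif2α KO kidneys. The 4 intercalated cell markers had -1.15, -2.51, -1.82 and -2.28 and -1.04, -2.4 and -1.62 in the same libraries. In both lists replicate 1 was highest in the Hif1α KO and in the Hif2α KO kidneys, as in the members. In DKO kidneys replicate 2, with the highest member median, was also highest in both (-1.42 and -1.03). The KI kidneys differed, since replicate 1 was highest in both lists (-2.65 and -1.65) and replicate 3 in the members. The other segment lists did not all follow either. The 3 distal convoluted tubule markers were at -1.82 in both Hif1α KO replicates 1 and 2, and lowest in KI replicate 3 (-3.44), and the 5 collecting duct principal cell markers were highest in Hif2α KO replicate 3 (0.14, against -0.79 in replicate 1). The 4 podocyte markers, which are not of the tubule, were highest in the library with the highest member median in all 4 groups with Cre (-1.07 in Hif1α KO replicate 1, -1.64 in Hif2α KO replicate 1, -1.56 in DKO replicate 2 and -1.87 in KI replicate 3). The 6 injured tubule markers were lowest in that library in the 3 knockout groups (3.15, 3.34 and 2.63), but in KI kidneys they were lowest in replicate 2 (3.61). The 5 leukocyte markers were highest in Hif2α KO replicate 1 (2.33) and DKO replicate 2 (2.38), but in Hif1α KO kidneys in replicate 3 (2.06) and in KI kidneys in replicate 2 (1.78). Gpnmb was lowest of its group in the library with the highest member median in all 3 knockout groups, at 3269 CPM in Hif1α KO replicate 1, 4953 CPM in Hif2α KO replicate 1 and 2807 CPM in DKO replicate 2.

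**Figure D5:**
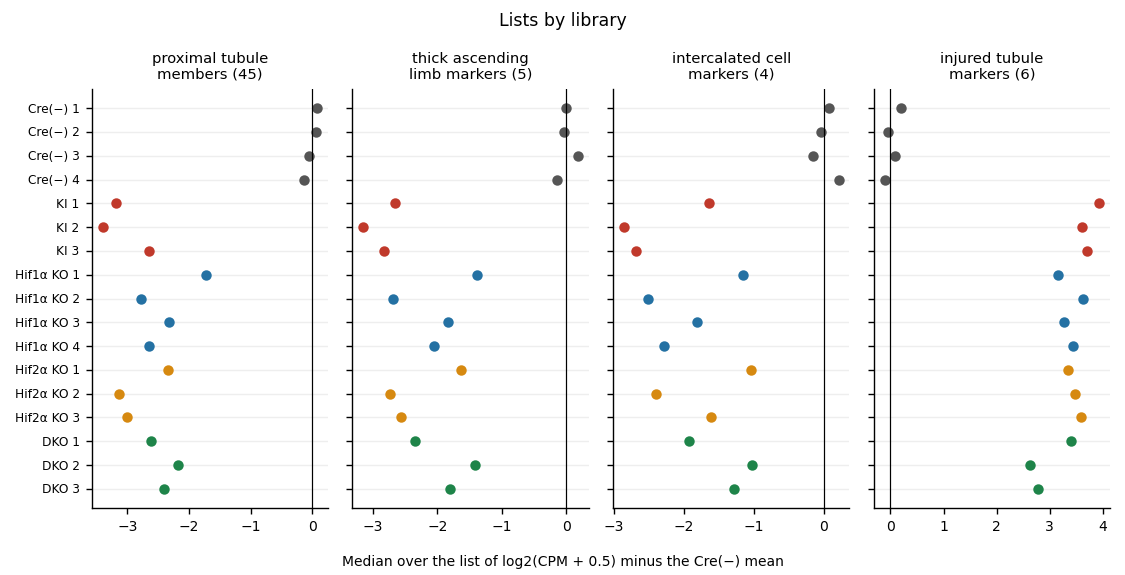
Median over a list of log2(CPM + 0.5) minus the Cre(−) mean (x axis) in each of the 17 libraries (y axis), for the 45 tested members, 5 thick ascending limb markers, 4 intercalated cell markers and 6 markers of injured tubules. Hif1α KO replicate 1 lies nearest to the Cre(−) kidneys in the member panel (-1.73), and the injured tubule panel lies above 2.6 in every kidney with Cre.

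Other cell types moved too when KI was compared with Cre(−) kidneys. All 5 thick ascending limb, 3 distal convoluted tubule and 4 intercalated cell markers fell, as did 3 of 4 podocyte, 3 of 4 endothelial and 4 of 5 collecting duct principal cell markers. The remaining podocyte and collecting duct markers rose, as did all 6 injured tubule, 3 of 4 fibroblast, 3 of 5 leukocyte and 2 of 4 adipocyte markers. In this comparison 29.3% of all genes fell and 31.6% rose. In no adipocyte marker did every KI library lie above every Cre(−) library. Against KI kidneys, 2 of 4 fibroblast markers rose in Hif1α KO, 2 in Hif2α KO and 3 in DKO kidneys, and 3, 1 and 4 of 5 thick ascending limb markers rose in the same order, where 2.57%, 1.39% (either direction) and 6.53% of all genes passed. Fewer markers of other lists rose, with 1, 0 and 1 of 5 leukocyte, 1, 0 and 1 of 3 distal convoluted tubule and 0, 0 and 2 of 5 collecting duct principal cell markers. Without 1 library at a time, the rises of the thick ascending limb markers numbered 1 to 3 in Hif1α KO and 1 to 5 in DKO kidneys. Those of the fibroblast markers numbered 1 to 2 in Hif1α KO and 2 to 3 in DKO kidneys. Summed fibroblast markers were 125.5 to 182.6 CPM in Cre(−), 384.9 to 401.5 CPM in KI, 471.9 to 586.4 CPM in Hif1α KO, 631.7 to 692.7 CPM in Hif2α KO and 585.6 to 913.3 CPM in DKO kidneys. The summed injured tubule markers were 1573.8 to 1854.8 CPM in Cre(−) and 4044.2 to 5237.4 CPM in KI kidneys. They were 4801.2 to 5935.3 CPM in Hif1α KO, 3761.4 to 5674.3 CPM in Hif2α KO and 4411.7 to 5470.6 CPM in DKO kidneys. These sums are mostly Spp1, which had 1545.4 to 1830.1 CPM in Cre(−) and 3641.8 to 4778.0 CPM in KI kidneys. Taken singly, the 6 markers had log2 fold changes from 1.36 to 5.73 in KI against Cre(−) kidneys, with a median of 4.11. By the edgeR test 2 of the 6 were lower in DKO than in KI kidneys. The summed thick ascending limb markers were 7239.2 to 9363.6 CPM in Cre(−), 850.5 to 1508.5 CPM in KI, 2129.8 to 4551.2 CPM in Hif1α KO, 1967.4 to 3773.9 CPM in Hif2α KO and 2758.7 to 4605.2 CPM in DKO kidneys. Summed adipocyte markers were 54.8 to 369.3 CPM in the kidneys outside KI, and 77.9, 156.7 and 1801.2 CPM in KI kidneys, the last in replicate 2. The part of these markers and of Gpnmb in the results on the members was not tested.

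Other proximal tubule genes, from lists written with the members, gave a wider view. Of 22 brush border proteins 21 fell in KI kidneys, against 29.3% of all genes tested, with a median log2 fold change of -1.86. Mep1b, a brush border protease subunit, moved furthest, from 232.0, 163.7, 194.8 and 181.8 CPM in Cre(−) to 6.61, 2.1 and 2.05 CPM in KI kidneys (-5.75, edgeR adjusted p = 4.3e-06). Anpep, aminopeptidase N, did not pass (-0.11), with 262.9, 206.7, 215.6 and 228.0 CPM in Cre(−) and 398.6, 119.8 and 118.0 CPM in KI kidneys. KI replicate 1 alone lay above the Cre(−) range and the other KI kidneys lay below it. Of 13 other proximal transporters 12 fell, against the same 29.3% of all genes, with a median of -3.38. The 13 ran from Slc51a, a subunit of an organic solute carrier (-5.27), to Slc38a3, a glutamine carrier that did not pass (0.04). Of the regulators of these genes, Hnf4a had 880.0, 866.0, 933.1 and 911.5 CPM in Cre(−) and 192.0, 188.9 and 273.7 CPM in KI kidneys (-2.04, edgeR adjusted p = 1.39e-06). Its relative Hnf4g fell by 2.53 on the log2 scale, and Cebpa (-0.13) did not pass.

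In Hif1α KO kidneys Slc2a5, the fructose carrier GLUT5, rose from 12.4, 8.24 and 10.4 CPM in KI to 74.1, 36.1, 34.2 and 40 CPM (log2 fold change 2.15 ± 0.34, edgeR adjusted p = 0.0054). Slc51a (2.59) and its partner subunit Slc51b (1.14) rose, as did Nr1h4, the bile acid receptor FXR, from 26.7, 25.6 and 41.5 to 84.8, 46.8, 49.2 and 60.7 CPM (0.95 ± 0.2, edgeR adjusted p = 0.0176). The Hif1α KO libraries of Slc2a5 and Nr1h4 lay above all KI libraries. Hnf4a (0.46, edgeR adjusted p = 0.2180) did not pass in Hif1α KO kidneys. Of the 22 brush border proteins 2 rose (Alpl 0.79 and Cltrn 1.27), where 2.57% of all genes did. Slc2a5 was called in all 7 fits that left out 1 library, Slc51a in 6, Nr1h4 in 5, Cltrn in 4, Slc51b in 3 and Alpl in 2, and without KI replicate 2 only Slc2a5 of these 6 was called. In Hif2α KO kidneys none of the genes of these lists passed. In DKO kidneys 3 of the 22 brush border proteins rose and Cdhr5 fell (-0.42), and 6 of the 13 other transporters rose and Slc38a3 fell (-0.73), where 6.53% of all genes rose and 6.19% fell. Leaving out 1 library at a time, the rises numbered 1 to 5 and 0 to 6, and Ace, a brush border peptidase (1.22), was the only gene of these lists called in all 6 fits. Nr1h4 had 24.6, 27 and 29.8 CPM in DKO kidneys and did not pass (-0.2).

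Members known to differ between male and female mouse kidneys include Kap, Slco1a1, Slc7a13 and Slc22a7, and the labels give no sex. Slco1a1 and Slc7a13 were scarce in Cre(−) kidneys, with 0.107 to 0.206 and 1.45 to 2.58 CPM. Kap and Slc22a7 were abundant there. The Y-linked genes Ddx3y and Eif2s3y had 0 to 4 and 0 to 2 counts and Uty 6 to 20 counts in all 17 libraries, whereas Kdm5d had 139 to 362 counts. Within a group Kdm5d varied most in Hif2α KO kidneys, with 333, 180 and 149 counts, the highest in replicate 1. The other Y-linked genes did not single out that library, with 4, 1 and 4 counts of Ddx3y and 10, 7 and 10 of Uty. The highest Kdm5d count of all libraries, 362, was in Cre(−) replicate 2. Whether the mice differ in sex was not tested.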

How the data were processed

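Kidney RNA of 17 mice was sequenced from TruSeq stranded mRNA libraries. Per the submitters' processing notes reads were trimmed with Trim Galore 0.6.6 and cutadapt 2.5 and aligned with STAR 2.7.9a to hg38, and RSEM gave transcript abundance. The notes name hg38 and GRCm38, and the files list mouse transcripts, so GENCODE M21 on GRCm38 was used here. The authors deposited expected counts (estimates that need not be whole) and TPM, normalized for length and library total, for each transcript. The study used DESeq2.

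Of 119353 transcripts 116770 (97.8%) were matched and 2583 left out. Expected counts were summed to 35971 genes and rounded. The main test was the quasi-likelihood test of edgeR 4.0.16 (under R 4.3.3), with all 17 libraries in the fit, a coefficient per group, TMM factors and filterByExpr (minimum count 10), which kept 17011 genes. P-values were Benjamini-Hochberg adjusted over these, threshold 0.05, and fold changes carry standard errors. CPM use TMM-scaled library sizes. The fits were tested on simulated data, and no outcome of that check is used here. The members and lists were chosen with earlier results of these data known. Genes with values in every library were set by a rule: the S1/S2 and S3 members with the largest and smallest fold change in KI kidneys, 9 listed members, and in each other contrast the 3 members with the largest change among those called or, with none called, the 3 smallest p. Slc20a2 and some members with outlying libraries were added after their values were seen. Alternatives were DESeq2 1.42.0, its size factors, no filter, the compared groups alone, a replicate block, limma 3.58.1 on log2(TPM + 1) and log2(TPM + 0.1) with TPM of at least 1 in 3 libraries, either pair of Cre(−) mice and leaving out each library. Figures used Python 3.11.15 and matplotlib 3.10.9.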

Additional observations from a re-analysis of the deposited data

Results flagged for a closer look

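Of 90 checks of a single library against its group (45 members in the 2 groups of 4 kidneys), 10 found a library far from the others by Dixon's criterion, which chance does in about 1 in 20 groups. In 9 of them Hif1α KO replicate 1 was far above the other 3 Hif1α KO kidneys. Its values were 116.4 CPM for Slc5a12 (others 44.8 to 53.4), 129.5 for Slc22a5 (92 to 97.9), 214.9 for Slc13a1 (106.1 to 112.8), 66.6 for Slc6a19 (26.4 to 31.1) and 71.9 for Slc7a7 (38.7 to 42.6). They were 161.7 CPM for Slc17a1 (95.5 to 101.1), 55.4 for Slc17a3 (25 to 28.5), 167.3 for Slc47a1 (120.0 to 127.3) and 532.8 for Pdzk1 (360.1 to 376.9). The flagged members are not independent, since they come from 1 library. In Cre(−) kidneys replicate 4 was far below the others for Slc3a1, at 643.8 CPM (others 783.1 to 800.2).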

How the results depend on the processing

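The 43 falls in KI kidneys were called again without each library in turn, and DESeq2, which gave no adjusted p for Slc22a8 and Slc22a19, called 41. The 15 rises in Hif1α KO kidneys numbered 9 with the replicate number as a block, 2 with the 2 groups alone and 2 to 17 without each library. For Hif2α KO the 0 rises became 4 with DESeq2 and ranged from 0 to 1 without each library. The 18 rises in DKO kidneys ranged from 3 to 18 without each library. For Hif1α KO against Hif2α KO the 0 calls became 1 with DESeq2 and ranged from 0 to 4 without each library. The S3 median log2 fold change in KI kidneys of -1.96 was -2.11 against the Cre(−) mice with HIF1af/f, -1.78 against those without, -1.4 on log2(TPM + 1) and -1.47 on log2(TPM + 0.1). Without each library, settings chosen after seeing the data, the S3 share regained ranged from 11.2% to 28.6% in Hif1α KO and from -6.91% to 33.5% in Hif2α KO kidneys, the latter reversed without Hif2α KO replicate 1. The cause was not tested. Correlations of same-numbered libraries ran from -0.32 to 0.34 (median -0.05, 31 pairs), and 3 of 17 libraries correlated best with their own number, so the numbers were not taken to pair the samples, and the block is given as a description. A fit with Y-linked genes as a covariate was not run, since Ddx3y and Eif2s3y had at most 4 counts. Depth limits Slc22a28, Slc22a30 and Slco1a1, which have 3 counts or fewer in at least 1 kidney. It also limits Slc7a13, with as few as 6 counts, and Slc22a7, with as few as 7.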
